A study of Mus musculus with 6 samples.

Results

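Regulators of G-protein signalling (RGS proteins) are the brakes of receptors that signal through heterotrimeric G proteins. They bind the GTP-loaded alpha subunit and speed its hydrolysis of GTP, which ends the signal of chemokine, lipid, amine and peptide receptors, mostly those coupled to Gi and Gq. Cells carry different sets of them: in the lung, some are known from pericytes and smooth muscle, others from lymphocytes, macrophages or platelets. The 10 genes described here, Rgs1, Rgs2, Rgs3, Rgs4, Rgs5, Rgs10, Rgs14, Rgs16, Rgs18 and Rgs19, were taken by name as members of this family, out of 12393 genes read on the arrays. They are not the whole family, and they were chosen with earlier results of these data known. Another 7 measured RGS genes are described further below. The 10 genes were covered by 23 probe sets, sets of short probes to a transcript. Each gene stands for its brightest probe set, judged by the mean of all 6 arrays, and its other probe sets are given beside it.

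The study compared whole lungs of mice given bleomycin, a DNA-damaging drug whose delivery to the airways is a model of lung fibrosis, with lungs of mice given saline. The 3 bleomycin mice (D, E and F) received 1 mg/kg in 50 µl of saline, and the 3 control mice (A, B and C) received saline. All were wild-type C57BL/6J mice aged 8 to 10 weeks, labelled as male, and all lungs were taken at day 14. The design text names the oropharyngeal route and the sample labels the intratracheal route. Because the lobes were homogenised after removal of the trachea and major airways, more cells of a type and more RNA per cell cannot be told apart in these values.

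Values are log2 expression values on Affymetrix MOE430A arrays, with 1 array per mouse, and array medians lay between 7.37 and 7.41. Arrays have no read depth, and their number limits the precision. Across probe sets, Pearson's r was 0.986 to 0.995 among bleomycin arrays, 0.987 to 0.989 among saline arrays and 0.965 to 0.985 between groups. Saline B went against its label as male: Xist, the RNA of the inactive X chromosome, was 11.40 there and at most 7.88 on the other arrays, and the Y-linked Eif2s3y was 4.05 there and at least 7.23 on the others. The main RGS results are therefore also given without it. The lung label fitted its markers: Sftpa1, which encodes surfactant protein A, lay between 13.13 and 13.61 on all arrays, and the mean of 9 lung epithelial markers was 11.52 to 11.84 in bleomycin lungs and 11.72 to 11.92 in saline lungs.

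Of the 10 RGS genes, 4 were higher after bleomycin and 0 were lower, at an adjusted p under 0.05 in limma. The 4 were Rgs1, Rgs4, Rgs5 and Rgs10, with differences of 0.81 to 1.08 log2 units. Among all genes read, 3.70% were called higher and 1.90% were called lower. Among 7 other measured RGS genes, 0 were called in either direction, and their median difference was -0.26. At an unadjusted p under 0.05, 5 of the 10 were higher and 1, Rgs18, was lower, against 11.7% and 11.0% of all genes. The bleomycin arrays lay wholly above the saline arrays for 5 of the 10 (Rgs19 besides the 4) and wholly below for 0, where this held for 13.3% and 14.6% of all genes. The median difference was 0.32 log2 units over the 10 genes and -0.04 over all genes. Without saline B, Rgs1, Rgs5 and Rgs10 were called, 3 in all, and without bleomycin F the count was 2, Rgs1 and Rgs10.

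**Figure D1:**
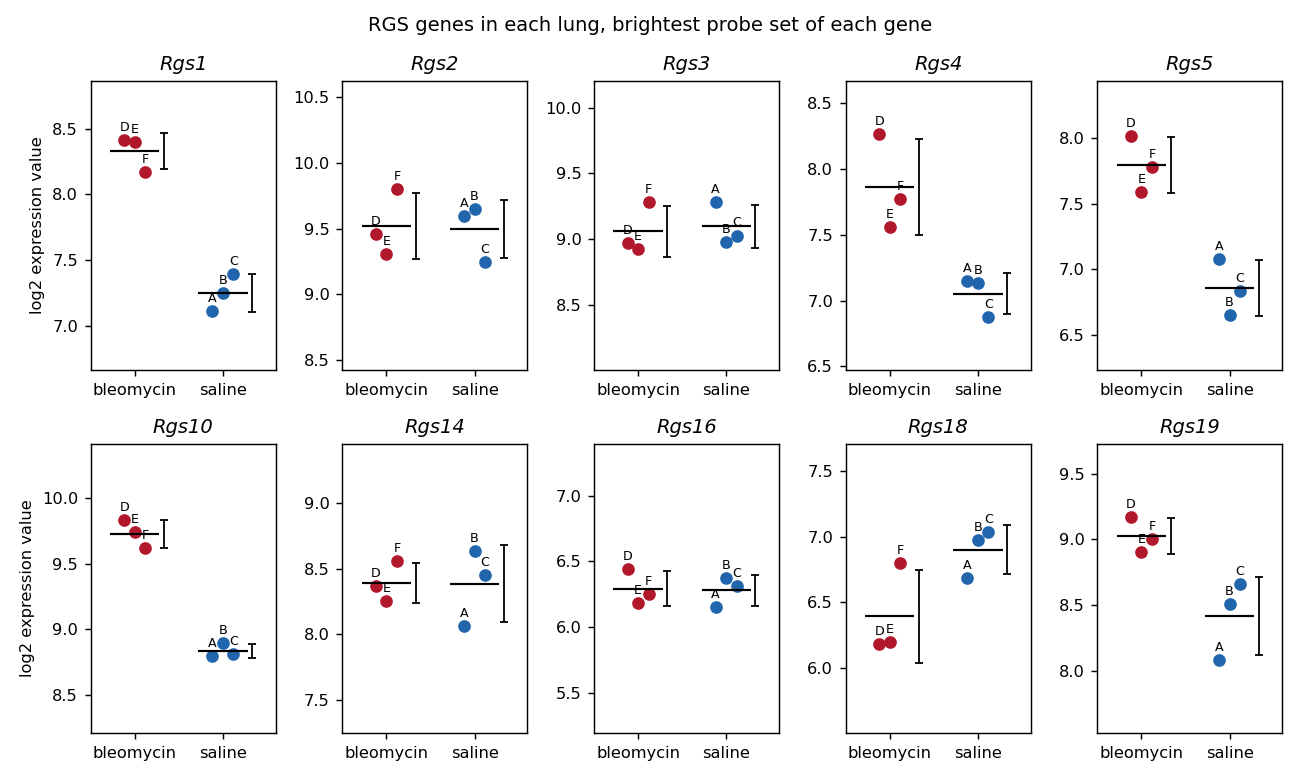
Log2 expression value (vertical axis, each panel spanning the same range) of the brightest probe set of each RGS gene in the 3 bleomycin and the 3 saline lungs. Letters name the mice, horizontal lines are group means and bars beside them are ± 1 SD (n = 3 each). The groups do not overlap for Rgs1, Rgs4, Rgs5, Rgs10 and Rgs19.

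Rgs1, which restrains the migration of lymphocytes and other leukocytes toward chemokines, was 8.41, 8.40 and 8.17 in bleomycin lungs D, E and F, against 7.11, 7.25 and 7.39 in saline lungs A, B and C. Every bleomycin lung was above every saline lung. The group means were 8.33 ± 0.14 after bleomycin and 7.25 ± 0.14 after saline (SD, n = 3 each), a 2.11-fold rise (difference 1.08 ± 0.12 log2 units, SE, limma adjusted p = 0.00327). It was the largest difference among the 10 genes. Rgs1 has 1 probe set, and its call was kept in all 6 fits with a single array left out, with differences of 1.01 to 1.16 and adjusted p up to 0.0228. Without saline B the difference was 1.08 (adjusted p = 0.0128).

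Rgs10, a small RGS protein that is abundant in microglia and other myeloid cells and dampens their inflammatory activation, was 9.83, 9.74 and 9.62 in bleomycin lungs, against 8.80, 8.89 and 8.81 in saline lungs. The 2 sets of values were far apart relative to their spread, with means of 9.73 ± 0.11 after bleomycin and 8.83 ± 0.05 after saline (SD, n = 3 each). The rise was 1.86-fold (0.89 ± 0.11 log2 units, SE, adjusted p = 0.00383). Rgs10 also has 1 probe set and was called in all 6 fits without 1 array, with differences of 0.84 to 0.95 (0.92 without saline B, adjusted p = 0.0123).

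Most of the listed macrophage markers were also higher in bleomycin lungs. Of 12 measured macrophage markers 9 rose and 0 fell (7 to 9 rose with an array left out), where 3.70% of all genes rose and 1.90% fell. The median difference of these markers was 1.13. C1qb and C1qc, which encode chains of complement C1q, rose by 3.42 and 2.74 log2 units and Cd68 by 2.68. The list averaged 10.22 to 10.41 in bleomycin lungs and 8.70 to 9.03 in saline lungs. Markers of T cells, which carry Rgs1, had 0 of 11 called (1 higher and 0 lower at an unadjusted p under 0.05), and B cell markers 0 of 7 (0 higher and 1 lower). Without saline B, 1 T cell marker was called higher, and the T cell median difference was 0.35 against 0.13 with all arrays. The T cell list mean was 7.18 to 7.37 in bleomycin lungs and 6.85, 7.42 and 7.15 in saline lungs A, B and C. That of the B cell list was 7.75 to 8.49 in bleomycin and 7.99 to 8.73 in saline lungs. The part of any of these cells in the RGS differences was not tested. RMA, the authors' summary of a probe set's probes, gives no value of 0, so no marker can be called absent.

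Rgs5, a marker of pericytes, the cells that wrap capillaries, was 8.01, 7.59 and 7.78 in bleomycin lungs, against 7.08, 6.65 and 6.84 in saline lungs. Each bleomycin lung exceeded each saline lung. Its brightest probe set averaged 7.79 ± 0.21 after bleomycin and 6.86 ± 0.21 after saline (SD, n = 3 each), 1.91-fold higher (0.93 ± 0.15 log2 units, SE, adjusted p = 0.0144). The other 3 probe sets of Rgs5 differed by 0.14, 0.28 and 0.23, none of them called. The mean of all 4 gave 0.39 log2 units (adjusted p = 0.04). Of the fits with an array left out, 5 of 6 kept the call, and without bleomycin F the adjusted p was 0.0553 with a difference of 0.94. Without saline B the difference was 0.83 (adjusted p = 0.0416).

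Rgs4, which shortens Gi and Gq signals in heart, brain and smooth muscle, was 8.27, 7.56 and 7.77 in bleomycin lungs, against 7.15, 7.13 and 6.88 in saline lungs. Bleomycin D stood highest, and the groups did not overlap. The brightest probe set averaged 7.87 ± 0.36 after bleomycin and 7.05 ± 0.15 after saline (SD, n = 3 each), 1.76-fold higher (0.81 ± 0.18 log2 units, SE, adjusted p = 0.0439). Its remaining 2 probe sets differed by 0.14 and 0.20 and were not called, and the mean of the 3 differed by 0.38 (adjusted p = 0.0974). In saline lungs alone the probe set at 0.14 was the brighter, with a mean of 7.10 against 7.05. The choice of probe set for Rgs4 thus rested on the bleomycin arrays, where the chosen one was high. The call was kept in 1 of 6 fits with an array left out, that without bleomycin E. The adjusted p was 0.103 without saline A, 0.082 without saline B, 0.129 without saline C, 0.0685 without bleomycin D and 0.104 without bleomycin F, with differences between 0.61 and 0.86.

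**Figure D2:**
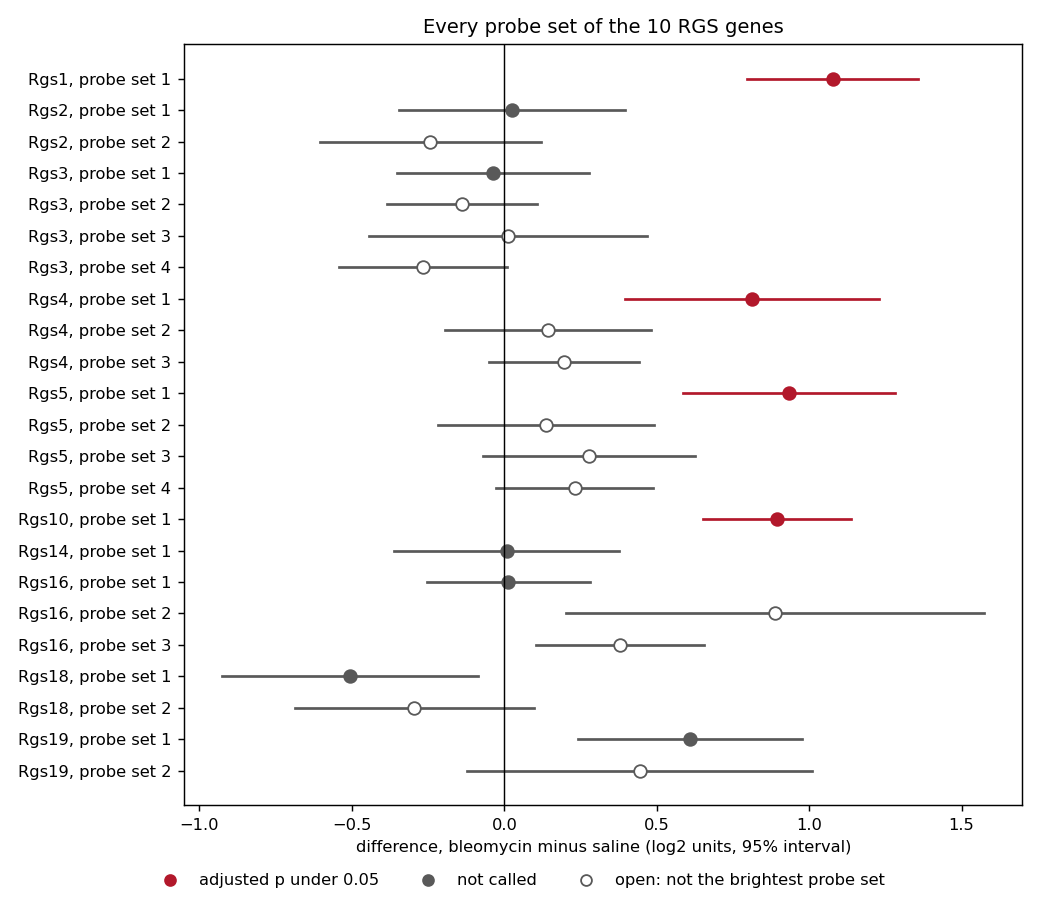
Difference between bleomycin and saline lungs (log2 units, horizontal axis) for all 23 probe sets of the 10 genes, numbered within a gene from the highest mean over 6 arrays. Filled points are the probe sets through which genes were read, red marks an adjusted p under 0.05 in limma, and lines are 95% intervals from the fit. For Rgs4 and Rgs5 the brightest probe set alone was called, and for Rgs16 the dimmer 2 lie above 0 while the brightest is at 0.01.

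Other pericyte and smooth muscle genes passed the test in neither direction. Of 9 pericyte markers 0 were called higher or lower in limma (1 higher and 3 lower at an unadjusted p under 0.05), and their median difference was -0.19. Without bleomycin F, 2 of them were called lower. The largest differences were -0.77 for Gucy1a1, -0.64 for Notch3 and 0.55 for Kcnj8. Pdgfrb, a receptor on the pericyte list, averaged 10.13 ± 0.32 in bleomycin and 10.55 ± 0.16 in saline lungs (SD, n = 3 each, adjusted p = 0.2). The pericyte list mean was 7.98 to 8.35 in bleomycin lungs and 8.17 to 8.49 in saline lungs. Of 8 smooth muscle markers 0 were called (1 higher and 1 lower at an unadjusted p under 0.05), and their list mean was 8.38 to 8.89 in bleomycin and 8.43 to 8.86 in saline lungs. Among 8 heart muscle markers, which pulmonary veins also carry, 0 were called, and 1 was called lower without saline B. At an unadjusted p under 0.05, 5 of them were lower, as were 11.0% of all genes. Their list mean was 7.80 to 8.45 in bleomycin and 8.45 to 9.36 in saline lungs.

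In the RefSeq gene table of GRCm38.p6, Rgs5 and Rgs4 are consecutive protein-coding genes on chromosome 1. The promoter windows of 3 of the 4 called genes, Rgs4, Rgs5 and Rgs10, are shown so that these neighbours can be compared with each other and with Rgs10. No window of Rgs1 was used here. Each runs 5′ to 3′ on the gene's strand, from 250 bases before to 50 after the start given by RefSeq. Capitals mark matches on either strand to 4 motifs. The TATA motif was searched as TATAAA. For the GC-rich site of Sp factors the letters were GGGCGG, for AP-1 they were TGANTCA, and for the core of PU.1 sites they were GAGGAA. No matched motifs overlap in the windows of Rgs4 and Rgs10, nor in that of Rgs5, which holds a single match. The windows lie at chr1:169747593-169747892 (minus strand) for Rgs4, chr1:169655251-169655550 (plus strand) for Rgs5 and chr7:128418123-128418422 (minus strand) for Rgs10.
Rgs4: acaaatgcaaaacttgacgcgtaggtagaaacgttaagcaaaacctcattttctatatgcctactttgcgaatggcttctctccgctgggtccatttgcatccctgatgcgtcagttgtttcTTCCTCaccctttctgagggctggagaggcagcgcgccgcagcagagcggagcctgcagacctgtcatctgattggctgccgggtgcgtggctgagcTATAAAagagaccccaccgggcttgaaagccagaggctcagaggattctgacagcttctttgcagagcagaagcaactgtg
Rgs5: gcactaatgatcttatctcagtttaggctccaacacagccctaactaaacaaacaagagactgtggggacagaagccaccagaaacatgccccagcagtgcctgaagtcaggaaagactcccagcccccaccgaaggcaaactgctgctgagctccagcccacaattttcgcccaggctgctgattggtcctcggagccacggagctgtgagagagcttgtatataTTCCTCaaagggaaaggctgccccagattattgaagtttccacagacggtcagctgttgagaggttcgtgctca
Rgs10: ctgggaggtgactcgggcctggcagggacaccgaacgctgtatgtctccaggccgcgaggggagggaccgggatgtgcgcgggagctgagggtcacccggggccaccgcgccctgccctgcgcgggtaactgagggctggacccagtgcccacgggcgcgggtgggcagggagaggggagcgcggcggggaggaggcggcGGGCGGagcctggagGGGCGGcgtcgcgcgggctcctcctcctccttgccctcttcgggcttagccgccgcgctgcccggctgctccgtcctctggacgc

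The windows differ in composition: 53.0% G or C for Rgs4, 52.3% for Rgs5 and 76.0% for Rgs10, against a median of 52.7% (quartiles 45.7% and 61.7%) over 32851 windows of the same length. CpG dinucleotides numbered 13 in Rgs4, 6 in Rgs5 and 34 in Rgs10. TATAAA stands in the Rgs4 window at -31 relative to the start, and 13.6% of all windows hold it. GGGCGG occurs at 2 places in the Rgs10 window and in 35.7% of all windows. GAGGAA occurs at -128 in Rgs4, at -24 in Rgs5 and in 28.3% of windows. TGANTCA is in none of these 3 windows and in 7.81% of all. These are matches of letters, chosen with the results known, and nothing here measured binding.

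Rgs19, which acts on Gi alpha subunits, was 9.17, 8.91 and 9.001 in bleomycin lungs, against 8.08, 8.51 and 8.66 in saline lungs. All bleomycin values were above all saline values, but saline A was well below the other saline lungs. Means were 9.03 ± 0.14 after bleomycin and 8.42 ± 0.30 after saline (SD, n = 3 each), and the difference of 0.61 ± 0.16 log2 units (SE) did not pass (adjusted p = 0.072). Its 95% interval ran from 0.24 to 0.98. The dimmer probe set of Rgs19 differed by 0.44 with overlapping groups (adjusted p = 0.344). In fits without 1 array the difference lay between 0.44, without saline A, and 0.73, without saline C, and was 0.65 without saline B.

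Rgs18, the family member of megakaryocytes and platelets, was 6.18, 6.20 and 6.80 in bleomycin lungs, against 6.69, 6.98 and 7.03 in saline lungs. Bleomycin F lay among the saline lungs, while D and E were lower than all of them. The difference was -0.51 ± 0.18 log2 units (SE, adjusted p = 0.162), with a 95% interval of -0.93 to -0.08, and -0.30 by the other probe set. Without bleomycin F it was -0.71 (adjusted p = 0.0659), and without saline B -0.47 (adjusted p = 0.285). Platelet markers were low on the same arrays: the mean of 9 of them was 7.42, 7.64 and 7.74 in bleomycin lungs D, E and F, against 7.99, 8.15 and 8.22 in saline lungs A, B and C. Of these 9 markers 2 fell, Clec1b by 1.37 and Gp5 by 0.58 log2 units, and 0 rose, where 1.90% of all genes fell and 3.70% rose. The other 7 were not called, among them Ppbp, whose difference was the largest (-1.45, adjusted p = 0.11). With 1 array left out Gp5 was called in 0 of 6 fits, with differences of -0.68 to -0.50 and adjusted p of 0.0528 to 0.11. Clec1b was called in 2 of 6, those without bleomycin D or F, with differences of -1.68 to -1.002 and adjusted p up to 0.114. Their part in the Rgs18 values was not tested.

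Rgs2, which acts mainly on Gq and tempers vasoconstrictor signals, was 9.46, 9.31 and 9.80 in bleomycin lungs, against 9.60, 9.65 and 9.25 in saline lungs. The groups overlapped, and the difference was 0.02 log2 units (95% interval -0.35 to 0.40, adjusted p = 0.95). By its other probe set it was -0.24 (95% interval -0.61 to 0.12, adjusted p = 0.419). Rgs2, Rgs1 and Rgs18 lie in a single run of RGS genes on chromosome 1 in the RefSeq table, with Rgs13 between Rgs2 and Rgs1 and Rgs21 between Rgs1 and Rgs18. Side by side, these neighbours differed by 0.02, 1.08 and -0.51, and the contrast between them was not tested. Rgs13 and Rgs21 were not measured, because no probe set named either gene alone.

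Rgs3, a regulator of Gi and Gq signals with several isoforms, was 8.97, 8.92 and 9.28 in bleomycin lungs, against 9.28, 8.98 and 9.03 in saline lungs. The difference was -0.04 log2 units (95% interval -0.35 to 0.28, adjusted p = 0.905). Its other 3 probe sets differed by -0.14, 0.01 and -0.27, and only the dimmest, at -0.27, had bleomycin arrays wholly below saline arrays (adjusted p = 0.248). Rgs14, a scaffold that joins an RGS domain to Ras-binding and Gi-binding parts, was 8.37, 8.25 and 8.56 in bleomycin lungs, against 8.06, 8.64 and 8.45 in saline lungs. Its values overlapped, with a difference of 0.01 (95% interval -0.36 to 0.38, adjusted p = 0.984).

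For Rgs16, an inducible regulator of Gi and Gq in lymphocytes and liver, the probe sets disagreed. The brightest was 6.44, 6.18 and 6.25 in bleomycin lungs, against 6.15, 6.37 and 6.31 in saline lungs, a difference of 0.01 (95% interval -0.26 to 0.28, adjusted p = 0.962). The second was 6.74, 5.47 and 5.52 in bleomycin lungs, against 5.02, 5.01 and 5.04 in saline lungs. There the saline lungs were nearly equal and bleomycin D stood far above E and F, and the difference of 0.89 ± 0.30 log2 units (SE) did not pass (adjusted p = 0.136). The dimmest was 5.15, 5.17 and 5.30 in bleomycin lungs, against 4.64, 4.87 and 4.97 in saline lungs, a difference of 0.38 without overlap (adjusted p = 0.119). Scanner files and detection calls were not used here, so how far such low values stand above background was not examined.

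**Figure D3:**
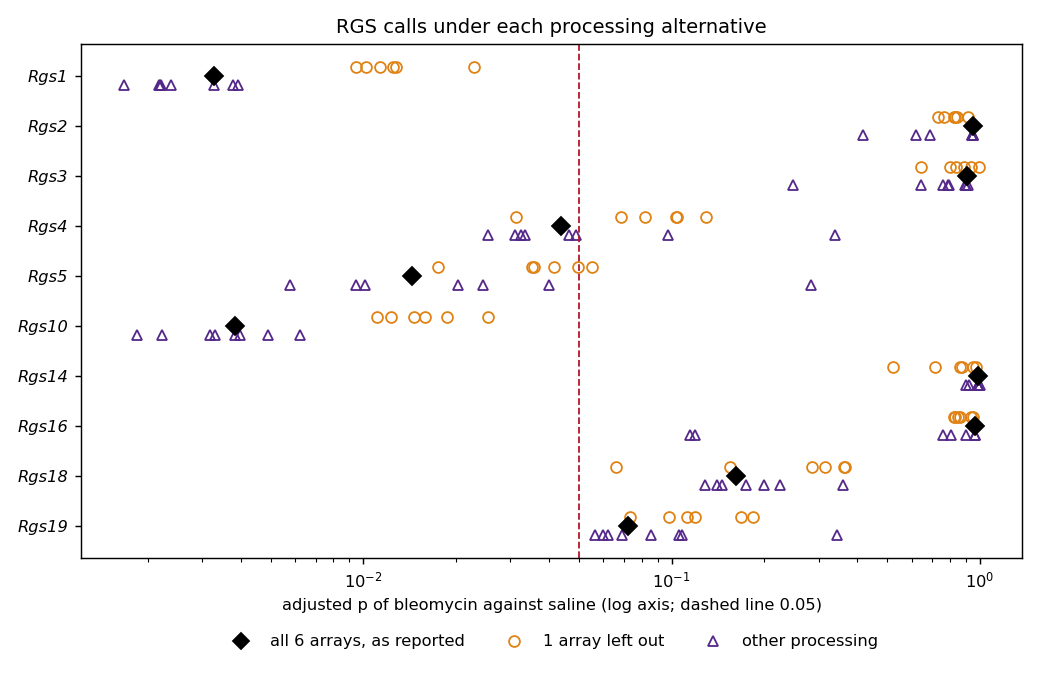
Adjusted p of bleomycin against saline (log axis) for each RGS gene with all 6 arrays (black diamonds), with 1 array left out (orange circles) and under other processing (purple triangles); the dashed line is 0.05. Rgs1 and Rgs10 stay left of the line throughout, Rgs4 crosses it in most fits without an array, and Rgs19 stays right of it.

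Among the rest of the family, 7 of 13 listed genes were measured and 0 were called in limma. At an unadjusted p under 0.05, 0 were higher and 4 were lower (Rgs11, Rgs9, Rgs17 and Rgs6), where 11.7% of all genes were higher and 11.0% lower. Rgs11, which with Rgs9 and Rgs6 pairs with the G beta 5 subunit, differed by -0.70 ± 0.25 log2 units (SE, adjusted p = 0.159). The differences of Rgs9, Rgs17 and Rgs6 were -0.48 (adjusted p = 0.0633), -0.45 (adjusted p = 0.0847) and -0.26 (adjusted p = 0.199). The median difference over the 7 was -0.26, against -0.04 over all genes.

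Among 12 measured alpha subunits of G proteins, 1 rose and 0 fell, where 3.70% of all genes rose and 1.90% fell. It was Gna15, a Gq-class subunit of blood cells, at 6.95, 6.41 and 6.78 in bleomycin lungs, against 5.96, 6.15 and 5.83 in saline lungs (0.73 ± 0.16 log2 units, SE, adjusted p = 0.0388). This call was kept only without bleomycin E, and the adjusted p reached 0.124 without bleomycin F, 0.116 without saline C, 0.106 without saline A, 0.0957 without bleomycin D and 0.0562 without saline B. Gnai2, the main Gi subunit of leukocytes, was not called (0.03, adjusted p = 0.906), and was added after its value was seen. Of 12 beta and gamma subunits 0 were called (1 higher and 0 lower at an unadjusted p under 0.05), and the largest difference was that of Gnb1, -0.45 ± 0.45 (SE, adjusted p = 0.606).

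Receptor kinases, arrestins and G protein modulators, which limit the same signals at other steps, had 0 of 10 called (2 higher and 0 lower at an unadjusted p under 0.05). The largest difference was 0.44 ± 0.13 log2 units for Arrb2, which encodes beta-arrestin 2 (SE, adjusted p = 0.0933). Among 11 effectors, phospholipases C beta and adenylyl cyclases, 0 rose and 1 fell, where 3.70% of all genes rose and 1.90% fell. Adcy9, an adenylyl cyclase, was 8.17, 8.20 and 8.14 in bleomycin lungs, against 9.20, 8.94 and 8.71 in saline lungs, and fell by 0.78 log2 units (adjusted p = 0.0186). Its groups were separate, and the adjusted p was 0.0555 without saline A and 0.072 without bleomycin F.

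Of 31 measured Gi- and Gq-coupled receptors, 4 rose and 2 fell, where 3.70% of all genes rose and 1.90% fell. The median difference of the receptors was -0.09 log2 units. C3ar1, the receptor of complement C3a, averaged 8.61 ± 0.20 in bleomycin and 6.42 ± 0.17 in saline lungs (SD, n = 3 each), 4.55-fold higher (adjusted p = 4.09e-04). The chemokine receptor Ccr1 averaged 9.23 ± 0.30 in bleomycin and 7.06 ± 0.28 in saline lungs (SD, n = 3 each), 4.50-fold higher (adjusted p = 0.00102). The nucleotide receptors P2ry6 and P2ry14 rose by 1.38 and 0.97 log2 units. Ednrb, the endothelin B receptor, averaged 7.21 ± 0.17 in bleomycin and 8.35 ± 0.30 in saline lungs (SD, n = 3 each) and fell by 1.14 (adjusted p = 0.00983, and 0.0581 without saline A). Lpar3, a lysophosphatidic acid receptor, fell by 1.04 (adjusted p = 0.0272). Its adjusted p was 0.0928 without saline A, 0.0631 without saline B, 0.0696 without bleomycin D and 0.0928 without bleomycin F. The 4 rises were called in all 6 fits with an array left out.

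**Figure D4:**
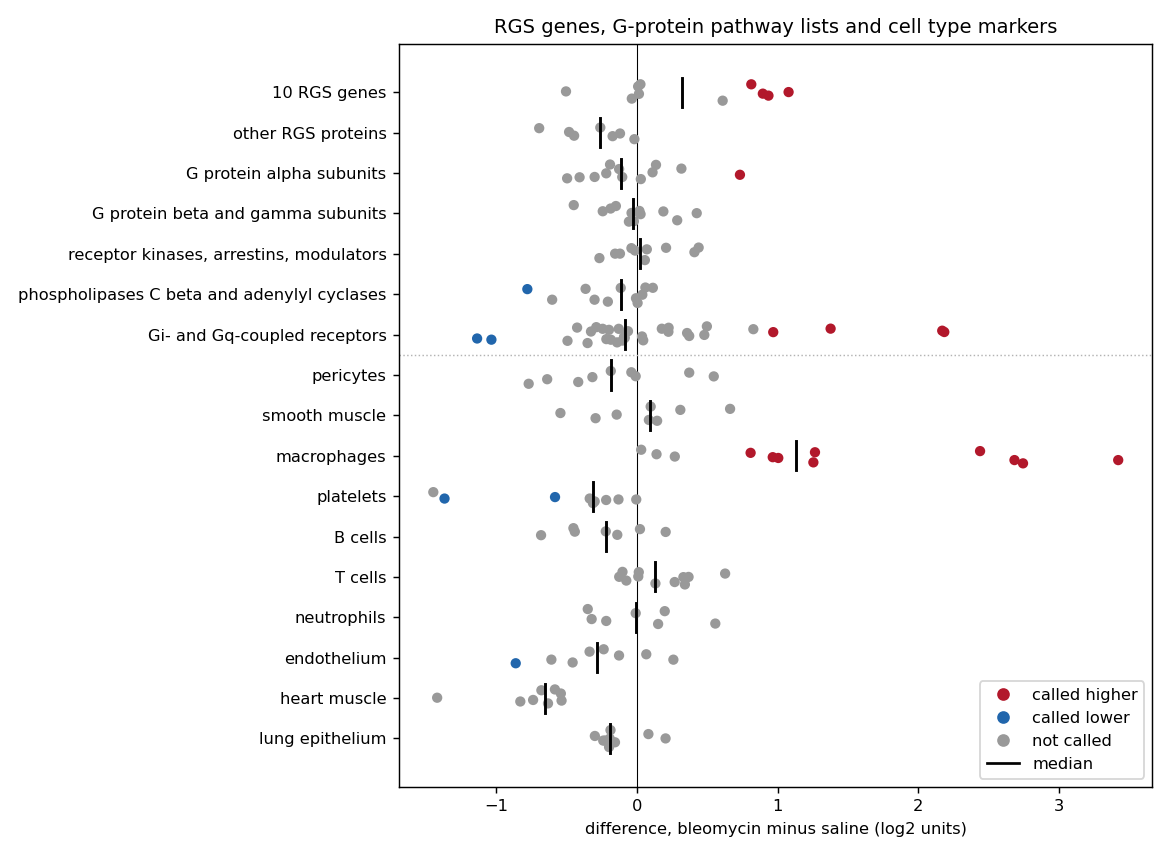
Difference between bleomycin and saline lungs (log2 units, horizontal axis) of each measured gene of the 10 RGS genes, of 6 lists of G-protein signalling (above the dotted line) and of 10 marker lists (below it). Red points were called higher, blue lower and grey neither, and black bars are medians: 0.32 for the RGS genes, 1.13 for macrophage markers and -0.66 for heart muscle markers.

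Of 7 neutrophil markers 0 were called (1 higher and 0 lower at an unadjusted p under 0.05). Of 8 endothelial markers 0 rose and 1 fell, where 3.70% of all genes rose and 1.90% fell. It was the receptor Kdr, which fell by 0.86 log2 units (adjusted p = 0.0148, and 0.0584 without saline A and 0.0508 without bleomycin F). Without saline B, 2 endothelial markers were called lower. Of the 9 epithelial markers 0 were called, and 0 were higher or lower at an unadjusted p under 0.05.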

How the data were processed

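Whole-lung RNA of 6 mice was hybridised to Affymetrix MOE430A arrays. The authors deposited RMA log2 values, 1 per probe set and array, quantile normalized as their design text states and as the submitters' processing notes name. The program behind them is not named there. Base 2 was inferred from the largest value, 14.42, too high for a natural log of scanner intensities. Of 22690 probe sets, 64 controls were left out and 22626 were tested. GEO's platform annotation gave 20380 of them 1 symbol, 691 several and 1555 none listed; 20351 were matched by Entrez ID to RefSeq's GRCm38.p6 table. None was named from several symbols.

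Bleomycin minus saline was fitted with limma 3.58.1 in R 4.3.3 (lmFit and eBayes, no covariates), with Benjamini-Hochberg adjustment over all 22626 probe sets and a threshold of 0.05. SE and 95% intervals are moderated. The fit was checked on simulated data. Labels A to F pair no mice. All RGS genes are named; from pathway lists up to 4 called genes by size, or the largest difference where none was called. From marker lists only the 3 largest differences could be named. Named beyond this because counts were small or as context, after their values were seen: Rgs9, Rgs17, Rgs6, P2ry14, Lpar3, Gnai2, Pdgfrb and Sftpa1. The members and lists were chosen with earlier results of these data known. Alternatives were another variance prior, array weights, filters on dim probe sets (25th percentile, median), repeated quantile normalization, centring on 45 ribosomal protein genes, other choices of probe set and leaving out each array. Promoter windows come from RefSeq (GRCm38.p6), which held 10 windows for 7 of the 10 genes. Figures used Python 3.11.15 and matplotlib 3.10.9.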

Additional observations from a re-analysis of the deposited data

How the results depend on the processing

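Of the 10 RGS genes, 4 were called higher as reported and 2 to 4 with 1 array left out. When each gene was read by its dimmest probe set 2 were called, Rgs1 and Rgs10, which have no other probe set. Of the 13 probe sets that were not the brightest of their gene, 0 were called. The number called lower was 0 under every alternative run. Rgs1 and Rgs10 were called in all 14 alternatives each, with differences of 0.99 to 1.16 and 0.84 to 0.95 log2 units. The alternatives that read a gene by other probe sets could not change the difference of these genes, which have 1 probe set each. Rgs5 was called in 11 of 13, since its probe set falls under the median filter, and Rgs4 in 7 of 14. The saline means of Rgs1 (7.25) and Rgs4 (7.05) lay under the saline array medians of 7.37 to 7.41. Both genes passed the median filter through their bleomycin values, so keeping the call there is no added support. By their dimmest probe sets Rgs5 differed by 0.23 and Rgs4 by 0.20. Rgs18 (-0.71 to -0.30) and Rgs19 (0.44 to 0.73) kept their sign and passed in none. Rgs2, Rgs3, Rgs14 and Rgs16, whose brightest probe sets differed by at most 0.04 in either direction, changed sign under some alternatives. Rgs2 was -0.025 with repeated quantile normalization, -0.020 with ribosomal centring, -0.11 as the mean of its probe sets and -0.24 by the dimmer one. Rgs3 was 0.068 with array weights, Rgs14 -0.039 with repeated normalization and -0.037 with ribosomal centring, and Rgs16 -0.047 with array weights and -0.031 with ribosomal centring. By contrast, Rgs16 was 0.43 as the mean of its probe sets (adjusted p = 0.115) and 0.38 by its dimmest (adjusted p = 0.119). With 1 array left out they ranged from -0.11 to 0.13 (Rgs2), -0.15 to 0.056 (Rgs3), -0.15 to 0.13 (Rgs14) and -0.060 to 0.068 (Rgs16). Over all genes, 458 were higher and 236 lower as reported, against 163 and 22 without saline A, 211 and 62 without bleomycin F, 266 and 93 without saline C, 299 and 87 without bleomycin D, and 306 and 98 without saline B; these fits have fewer arrays. No paired analysis was possible because each letter names a single array. Signal over background was not examined, which limits the dimmest probe sets of Rgs4, Rgs5 and Rgs16 most.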
